A study of Mus musculus with 48 samples.

Results

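Astrocyte marker genes were followed in the medial prefrontal cortex (mPFC) of mice. The members are 10 genes by which astrocytes are commonly recognised, namely Gfap, S100b, Aqp4, Gja1, Gjb6, Aldh1l1, Aldoc, Glul, Fgfr3 and Sox9. They are 10 of the 32138 gene names on the array. Their probes were taken by the gene name printed in the array files, which gave 15 probes of the 55681 on the array, and 14 of the 15 were detected in mPFC, where 28358 probes were detected in all. The mice were female C57BL/6J animals, 17 weeks old, and all had been operated on. Control mice had a sham operation and no stress, CUMS mice had a sham operation and then chronic ultra-mild stress (CUMS), OVX mice had both ovaries removed and no stress, and OVX+CUMS mice had both. Each group held 6 mice with 1 array each, 24 arrays in total. The ovariectomized mouse is used as a model of menopause, in animals that were young adults, and the labels name no hormone replacement in any group. The comparisons ask what ovariectomy, stress and both together did to the RNA of these genes.

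Astrocytes are the glial cells that surround synapses and blood vessels. They take up glutamate and turn it into glutamine, buffer water and ions, and are joined to each other through gap junctions. After injury or in disease they become reactive, a state in which the filament protein Gfap commonly rises, while fewer or less marked astrocytes have been described in frontal cortex in depression. RNA was taken from whole dissected tissue, so fewer astrocytes and less RNA per astrocyte cannot be told apart here.

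Values are given as the log2 of the background-subtracted spot signal minus the 75th percentile of the same array, called the normalized log2 signal below. A value of 0 is the signal at that percentile. Probes differ in how well they bind, so no level of one probe was set against that of another. Differences between groups were tested with limma over all 28358 detected probes, and p-values were adjusted over all of them by Benjamini-Hochberg, with a probe called at an adjusted p under 0.05. Unless stated otherwise, the error after a difference is its standard error (SE). The OVX effect is the mean difference made by ovariectomy over stressed and non-stressed mice, the CUMS effect the mean difference made by stress over both surgeries, and the interaction the difference between the effects of stress in ovariectomized and in sham-operated mice.

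The 75th percentile of an array lay between 571.6 and 688.8 signal units, between 31556 and 38067 probes per array were well above background, and no spot was saturated. The arrays lay on 3 glass slides that followed the groups closely. The 6 control arrays were all on slide 1, together with 2 of the CUMS group. The remaining 4 of that group lay on slide 2 beside 4 from OVX mice, and the last 2 from OVX mice lay on slide 3 with the 6 from OVX+CUMS mice. The control group thus never met the OVX or OVX+CUMS group on a slide, and slide and group can be told apart only through the CUMS and OVX arrays that were split between slides. With slide as a block in the limma model, no probe of the 28358 was called for any effect at an adjusted p under 0.05, and 1880, 2083, 649 and 1678 had an unadjusted p under 0.05 for the OVX effect, the CUMS effect, the interaction and OVX+CUMS against control. Values with slide as a block are given beside the results of the members for OVX+CUMS against control and for each of their calls. They are also given for most calls named from other lists.

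Each of the 10 genes had a probe detected on all 24 mPFC arrays. Detection in whole cortex cannot tell astrocytes from other brain cells, so it is no check of the label. On the 24 blood arrays of the same mice the probes of S100b, Gja1, Gjb6 and Sox9 were detected on 0. The other members had blood signal as well: Aldh1l1, Aldoc, Glul, Gfap A_52_P52303 and Fgfr3 A_65_P06147 were detected on all 24 blood arrays and Aqp4 A_55_P2000369 on 23. Their signal was lower there than in mPFC, as for Glul with 313.4 to 785.3 units in blood and 38960 to 54020 units in mPFC, and for Gfap A_52_P52303 with 22.7 to 74.63 and 489.9 to 2551 units. These units are not scaled between arrays. The 75th percentile was 54.94 to 191.5 units on blood arrays and 571.6 to 688.8 on mPFC arrays, so the gaps also hold a difference in brightness of whole arrays.

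Of the 14 detected member probes, 2 rose with ovariectomy, both of Fgfr3, and none fell, where 30.9% of all detected probes were called for the OVX effect (19.1% higher and 11.7% lower). For the CUMS effect 0 of the 14 were called by limma, where 4.19% of all probes were called (2.33% higher and 1.86% lower). For the interaction 0 were called, where 4.49% were called (3.37% higher and 1.12% lower). In OVX+CUMS mice compared with control mice the 2 Fgfr3 probes were again higher and none was called lower, where 33.4% of all probes were called (20.4% higher and 13% lower). At an unadjusted limma p under 0.05 were 3, 1 and 5 of the 14 for the CUMS effect, the interaction and OVX+CUMS against control. Of all 28358 probes 6579, 6631 and 12355 were. The median change over the 14 probes was -0.005 for the OVX effect and 0.008 for OVX+CUMS against control, beside 0.044 and 0.060 over all detected probes. The share of members called was thus below that of all probes in the OVX effect and in OVX+CUMS mice; the members are too few for more than this description.

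**Figure D1:**
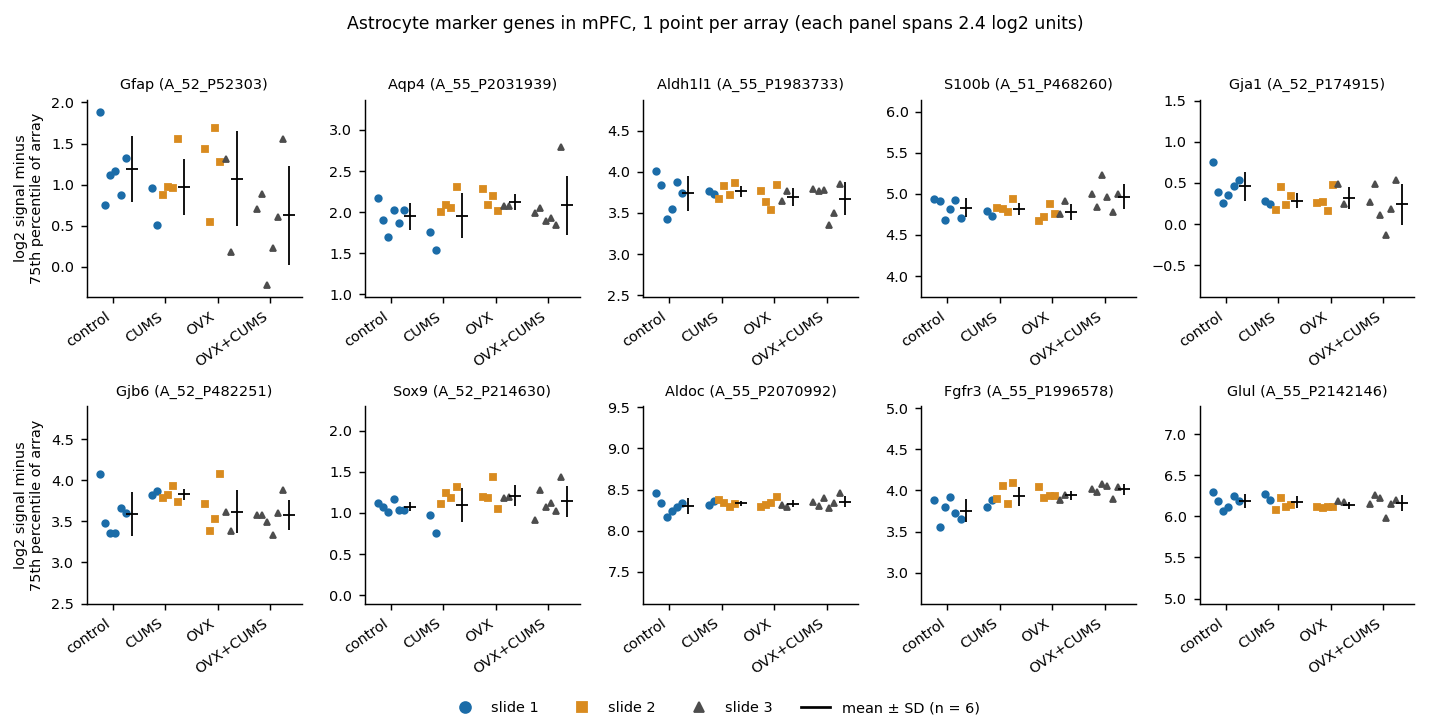
Normalized log2 signal of 1 probe per astrocyte marker gene on each of the 24 mPFC arrays, with 6 arrays per group; marker shape and colour give the slide, and the line to the right of each group gives the mean and SD. Every panel spans the same 2.4 log2 units, so that Gfap can be seen to vary most within groups and Aldoc and Glul least, while Fgfr3 is lowest in control mice.

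Fgfr3 is a receptor for fibroblast growth factors that astrocytes keep in the adult cortex. It was the only member called in the limma fit described above that left slide out. It has 3 probes on the array. A_55_P1996578 and A_65_P06147 were detected on all 24 arrays, whereas A_55_P2150422 was detected on 0 of 24, with signals of 2.591 to 18.11 units, and was not tested. By the coordinates in the array files (mouse build mm9, plus strand of chromosome 5), A_55_P1996578 lies at chr5:34079649-34079708, A_65_P06147 at chr5:34077856-34078090 and the silent A_55_P2150422 at chr5:34074696-34074755, the last annotated to a different transcript. The sequence of A_65_P06147 is shown because it is the one of the Fgfr3 probes whose 60 letters are spread over 235 bases of the genome, so that it matches spliced RNA:
A_65_P06147: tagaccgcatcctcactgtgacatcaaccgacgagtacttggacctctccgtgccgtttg

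The normalized log2 signal of A_55_P1996578 was lowest at 3.55, had a median of 3.76 and was highest at 3.92 in control mice. In CUMS mice these values were 3.80, 3.89 and 4.09, in OVX mice 3.88, 3.93 and 4.04, and in OVX+CUMS mice 3.90, 4.03 and 4.08. The control arrays were thus low, the other groups overlapped each other, and the lowest OVX+CUMS array stood just under the highest control array. The OVX effect was 0.135 ± 0.042 (1.10-fold, limma adjusted p = 0.0184). OVX+CUMS mice were 0.258 ± 0.060 above control mice (1.2-fold, 95% confidence interval 0.134 to 0.382, adjusted p = 0.00219), with p = 0.00433 in a two-sided exact permutation test of 6 against 6 arrays, where the smallest possible p is 0.00216. The CUMS effect of 0.123 ± 0.042 did not pass (adjusted p = 0.0867), and neither did the interaction of -0.101 ± 0.085 (adjusted p = 0.491). The OVX effect and the difference of OVX+CUMS from control stayed called in all 24 fits that left out 1 array (0.115 to 0.151 and 0.218 to 0.290), and the CUMS effect passed in 1 of them, without CUMS replicate 1 (adjusted p = 0.0415).

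The second probe, A_65_P06147, gave -0.44, -0.21 and -0.16 (lowest, median and highest) in control mice. CUMS mice gave -0.16, -0.07 and 0.19, OVX mice gave -0.12, -0.10 and 0.08, and OVX+CUMS mice gave -0.19, 0.03 and 0.19. All 6 OVX arrays stood above all 6 control arrays; it was the 1 member probe of 14 for which these groups did not overlap, where 11.4% of all detected probes had OVX arrays all higher and 9.64% all lower. No member probe separated OVX+CUMS from control arrays, where 8.59% of all probes were separate and higher and 8.56% separate and lower, and none separated CUMS from control arrays, where the shares were 1.71% and 1.07%. OVX+CUMS mice exceeded control mice by 0.282 ± 0.069 (1.22-fold, 95% confidence interval 0.140 to 0.425, limma adjusted p = 0.00320, two-sided exact permutation p = 0.00866). The OVX effect of 0.127 ± 0.049 lay at the threshold (adjusted p = 0.0499) and stayed called in 7 of the 24 fits that left out 1 array (adjusted p from 0.0167 to 0.0903), those without control replicates 1, 3 or 5, CUMS replicates 4 or 6 or OVX+CUMS replicates 5 or 6. The CUMS effect of 0.155 ± 0.049 was not called (limma adjusted p = 0.0656), although it passed without CUMS replicate 1, CUMS replicate 2 or OVX+CUMS replicate 6 (lowest adjusted p = 0.0393).

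In the fit with slide as a block, the difference of OVX+CUMS from control was 0.173 ± 0.138 for A_55_P1996578 (limma adjusted p = 0.957) and 0.169 ± 0.162 for A_65_P06147 (adjusted p = 0.968), so that neither was called. The OVX effects were 0.079 ± 0.093 (adjusted p = 0.923) and 0.052 ± 0.110 (adjusted p = 0.960) in that fit, and both calls were lost. Within slide 1 the 2 CUMS arrays exceeded the 6 control arrays by 0.091 and 0.154 for these probes, and within slide 3 the 6 OVX+CUMS arrays exceeded the 2 OVX arrays by 0.098 and 0.080. Within slide 2, CUMS exceeded OVX by 0.016 and 0.065. CUMS arrays of slide 2 stood above CUMS arrays of slide 1 by 0.123 and 0.114, and OVX arrays of slide 3 differed from those of slide 2 by -0.04 and 0.00. No slide held control together with OVX or OVX+CUMS arrays, so the OVX effect has no value within a slide. With the 75th percentile taken over detected probes neither OVX effect of Fgfr3 was called (0.104 and 0.096, limma adjusted p = 0.0610 and 0.164). The sizes of these differences also depended on the scaling of the arrays: after a shift by the spike-in probes, a scaling chosen after seeing the data that put the median of all probes at -0.161 in place of 0.060 for OVX+CUMS against control, the differences were 0.037 and 0.061 and not called. Relative to the median of all probes they were 0.198 and 0.223 under either scaling. A shift of whole arrays moves all probes alike and cannot change these values, so their sameness is no further check. After another background correction (normexp) A_65_P06147 gave 0.124 for OVX+CUMS against control (adjusted p = 0.116) and 0.017 for the OVX effect (adjusted p = 0.797), while A_55_P1996578 kept its calls with 0.270 (adjusted p = 0.00162) and 0.142 (adjusted p = 0.0148).

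**Figure D2:**
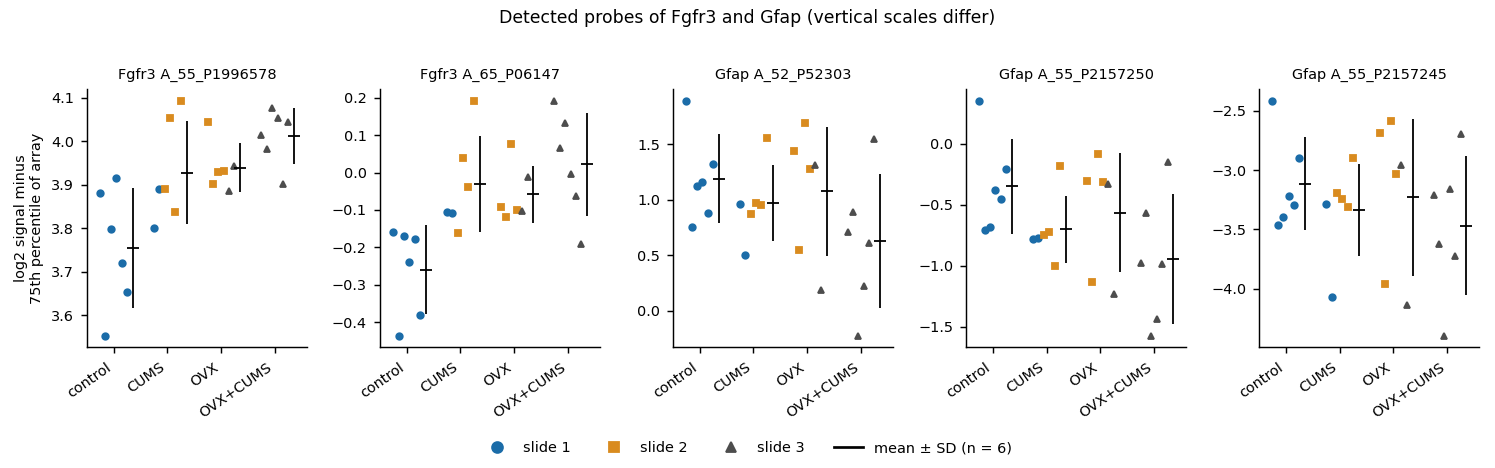
Normalized log2 signal of the detected probes of Fgfr3 (2) and Gfap (3) on each of the 24 mPFC arrays, by group, with the slide as marker shape and colour and the mean and SD beside each group (n = 6); the vertical scales differ between panels. The control arrays are low for both Fgfr3 probes, and the 3 Gfap probes show the same wide scatter, with mean differences of OVX+CUMS from control of -0.56, -0.60 and -0.36.

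Gfap, the intermediate filament protein of the astrocyte skeleton, had the widest spread among the members. Its 3 probes lie on the minus strand of chromosome 11 in mm9, A_55_P2157250 at chr11:102748864-102748923, A_52_P52303 at chr11:102751813-102751872 and A_55_P2157245 at chr11:102752726-102752785, and the first is annotated to a different transcript from the other two. All 3 were detected on 24 of 24 arrays. The pooled standard deviation within groups was 0.493, 0.433 and 0.521 for A_52_P52303, A_55_P2157250 and A_55_P2157245, which exceeded that of 97%, 95.2% and 97.5% of all detected probes (median over all 0.147).

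For A_52_P52303 the normalized log2 signal was 0.76, 1.14 and 1.89 (lowest, median and highest) in control mice and 0.51, 0.96 and 1.56 in CUMS mice. It was 0.18, 1.29 and 1.70 in OVX mice and -0.22, 0.66 and 1.55 in OVX+CUMS mice. The groups overlapped over most of their range: the OVX+CUMS mice held the lowest array of the 24, at -0.22, while their highest array, at 1.55, lay above the medians of all groups. Mean levels were 1.19 ± 0.40 in control and 0.63 ± 0.60 in OVX+CUMS mice (SD, n = 6), a difference of -0.563 ± 0.269 that was not called (limma adjusted p = 0.112, two-sided exact permutation p = 0.0866, 95% confidence interval -1.12 to -0.005). The second probe, A_55_P2157250, gave -0.71, -0.42 and 0.35 in control mice and -1.57, -0.98 and -0.15 in OVX+CUMS mice, a difference of -0.600 ± 0.236 (adjusted p = 0.0543). The dimmest, A_55_P2157245, gave a difference of -0.355 ± 0.284 (adjusted p = 0.356). For the OVX effect the 3 probes gave -0.229, -0.233 and -0.125, and for the CUMS effect -0.333, -0.367 and -0.230, and none was called.

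The 3 Gfap probes followed each other from array to array. After each probe was centred within its group, Pearson's r over the 24 arrays was 0.944 between A_52_P52303 and A_55_P2157250, 0.893 between A_52_P52303 and A_55_P2157245 and 0.797 for the remaining pair; these are descriptions of probes that share arrays and RNA. The wide spread was thus common to the probes annotated to either transcript. Whether each probe matches only its own transcript was not settled. With slide as a block the differences of OVX+CUMS from control were -0.430 ± 0.628, -0.384 ± 0.569 and -0.391 ± 0.655, none called. Single arrays mattered: without OVX+CUMS replicate 6 the first probe gave -0.747 and was called lower (limma adjusted p = 0.0299), and A_55_P2157250 was called lower in 6 of the 24 fits that left out 1 array (adjusted p from 0.0137 to 0.142 over the 24), those without control replicates 2 or 3, OVX replicates 2 or 6 or OVX+CUMS replicates 2 or 6. After the spike-in shift both were called lower, with -0.784 (adjusted p = 0.0253) and -0.821 (adjusted p = 0.00975). A_55_P2157250 was also called lower after normexp (-0.527, adjusted p = 0.0386) and with the percentile taken over detected probes (-0.646, adjusted p = 0.0427).

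Markers of tissue at the brain surface and of the ventricle moved with Gfap and with some other members. The summed signal of meningeal fibroblast markers (3 of 4 detected, with Igf2 not detected) correlated with Gfap within groups at r = 0.663 over the 24 arrays and with the mean of the 10 members at 0.760. Among the other members r with this sum was highest for Aqp4 (0.759), Gjb6 (0.653) and Gja1 (0.602) and lowest for S100b (-0.076) and Fgfr3 (0.052). On a log2 scale that sum was 0.622 to 2.353 in control, 0.614 to 2.103 in CUMS, 0.915 to 2.036 in OVX and 0.166 to 2.590 in OVX+CUMS mice, with medians of 1.384, 1.733, 1.144 and 0.508. Col1a1, a collagen of that list, fell with ovariectomy by 0.785 (limma adjusted p = 0.0470), and gave -1.355 with slide as a block, where it was not called. The other detected markers, Dcn and Lum, gave OVX effects of -0.431 and -0.763 that were not called (adjusted p = 0.199 and 0.0749). The sum of choroid plexus and ependyma markers (3 of 5 detected, with Ttr and Tmem212 not detected) correlated with Gfap at r = 0.737, and ranged from -1.744 to -1.462 in control, -1.648 to -1.272 in CUMS, -1.695 to -0.753 in OVX and -2.110 to -1.621 in OVX+CUMS mice, with medians of -1.645, -1.474, -1.384 and -1.785. With the mean of the 10 members its r was 0.514. Among the other members r was highest for Sox9 (0.453), Gja1 (0.334) and Aqp4 (0.321) and lowest for S100b (-0.109) and Aldh1l1 (-0.074). The part of these cells in the values of Gfap or of the other members was not tested.

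S100b, a calcium-binding protein of astrocytes and some oligodendrocytes, was 4.69, 4.87 and 4.94 (lowest, median and highest) in control mice, 4.73, 4.80 and 4.94 in CUMS mice, 4.66, 4.76 and 4.92 for OVX mice and 4.78, 4.98 and 5.22 in OVX+CUMS mice. The OVX+CUMS mice held the 4 highest arrays of the 24, yet their lower arrays lay within the range of the other groups. Its interaction of 0.204 ± 0.094 was the 1 interaction among the members with an unadjusted p under 0.05 and was not called (limma adjusted p = 0.194). OVX+CUMS mice differed from control mice by 0.135 ± 0.066 (adjusted p = 0.122) without a block and by -0.034 ± 0.156 with slide as a block. After normexp the difference was 0.297 and was called (adjusted p = 0.00162), as was the OVX effect of 0.168 (adjusted p = 0.00979).

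Aqp4, the water channel of the astrocyte endfeet around vessels, has 2 probes, and neither was called for any effect. For A_55_P2031939 the values were 1.70, 1.96 and 2.18 in control mice, 1.54, 2.03 and 2.31 in CUMS mice, 2.02, 2.08 and 2.28 for OVX mice and 1.84, 1.96 and 2.79 in OVX+CUMS mice. The highest value was that of OVX+CUMS replicate 6, and without it the OVX+CUMS arrays did not reach above 2.05. OVX+CUMS mice differed from control mice by 0.131 ± 0.134 (limma adjusted p = 0.480) for this probe and by 0.027 ± 0.142 (adjusted p = 0.905) for A_55_P2000369, and the probes correlated within groups at r = 0.857. With slide as a block these differences were -0.257 ± 0.286 and -0.647 ± 0.282 (adjusted p = 0.973 and 0.785, unadjusted p = 0.379 and 0.0327), opposite in sign to those without it. CUMS arrays of slide 2 exceeded those of slide 1 by 0.461 and 0.582.

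Gja1 encodes connexin 43 and Gjb6 connexin 30, the gap junction proteins that join astrocytes. Gja1, a probe printed on 10 spots, was 0.25, 0.43 and 0.76 in control mice, 0.17, 0.26 and 0.45 in CUMS mice, 0.16, 0.26 and 0.49 for OVX mice and -0.14, 0.22 and 0.53 in OVX+CUMS mice. The control mice had the highest median and the groups overlapped. OVX+CUMS mice differed from control mice by -0.218 ± 0.097 (limma adjusted p = 0.0881, 95% confidence interval -0.420 to -0.016), and by -0.332 ± 0.237 with slide as a block. The call depended on single arrays and on the processing: the limma adjusted p was 0.0423 without OVX+CUMS replicate 2, 0.0304 without OVX+CUMS replicate 6, 0.0356 after normexp, 0.0471 with the percentile taken over detected probes and 0.00411 after the spike-in shift. Gjb6 was 3.35, 3.54 and 4.08 in control mice, 3.74, 3.82 and 3.93 in CUMS mice, 3.38, 3.57 and 4.08 for OVX mice and 3.33, 3.58 and 3.88 in OVX+CUMS mice. The CUMS arrays were close together, in the upper part of the ranges of the other groups, and OVX+CUMS mice differed from control mice by -0.011 ± 0.117 (adjusted p = 0.952), and by 0.190 ± 0.281 with slide as a block.

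The 3 enzymes of the list were not called for any effect. Aldh1l1, which oxidises formyl-tetrahydrofolate in the folate pathway, was 3.43, 3.79 and 4.0 in control mice and 3.35, 3.78 and 3.85 in OVX+CUMS mice, a difference of -0.064 ± 0.092 (limma adjusted p = 0.627). Aldoc, the brain aldolase of glycolysis, was 8.16, 8.31 and 8.45 in control mice and 8.27, 8.34 and 8.46 in OVX+CUMS mice, a difference of 0.049 ± 0.043 (adjusted p = 0.414, 95% confidence interval -0.041 to 0.139). Glul, glutamine synthetase, was 6.07, 6.19 and 6.29 in control mice and 5.98, 6.17 and 6.26 in OVX+CUMS mice, a difference of -0.024 ± 0.049 (adjusted p = 0.747, 95% confidence interval -0.125 to 0.077). The differences of Aldh1l1, Aldoc and Glul were -0.095 ± 0.224, 0.095 ± 0.103 and 0.001 ± 0.109 with slide as a block. Without a block, the intervals of Aldoc and Glul leave room for changes of up to 0.139 and 0.125 in size. The larger errors with slide as a block leave room for larger changes. These 2 genes also varied least from mouse to mouse, with pooled standard deviations of 0.066 and 0.077 within groups, larger than those of 3.9% and 9.6% of all detected probes. After the spike-in shift Glul was called lower in OVX+CUMS mice (-0.245, adjusted p = 0.0236).

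Sox9, a transcription factor that sets up and keeps the astrocyte state, is measured by a probe on 10 spots. It was 1.02, 1.06 and 1.17 in control mice, 0.75, 1.15 and 1.31 in CUMS mice, 1.05, 1.19 and 1.44 for OVX mice and 0.91, 1.10 and 1.44 in OVX+CUMS mice. The control arrays were the closest together, and the range of each other group covered or reached into theirs. OVX+CUMS mice differed from control mice by 0.064 ± 0.088 (limma adjusted p = 0.615) without a block and by -0.259 ± 0.179 with slide as a block.

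**Figure D3:**
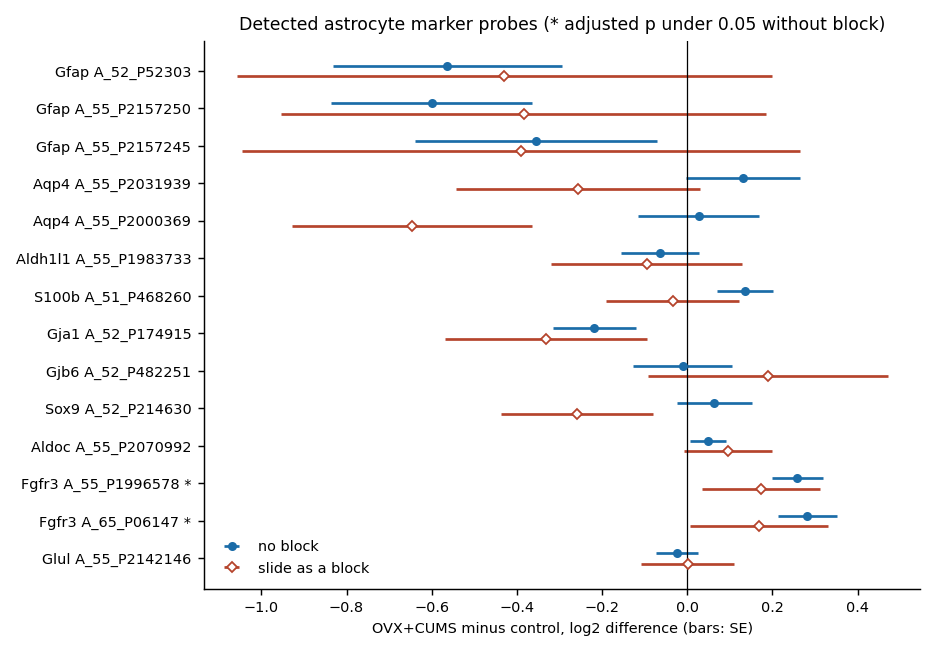
Difference of OVX+CUMS from control mice on the log2 scale for the 14 detected astrocyte marker probes, with its SE, without a block (filled circles) and with slide as a block (open diamonds); asterisks mark an adjusted p under 0.05 without a block. The 2 Fgfr3 probes lie above 0 in both fits and the 3 Gfap probes and Gja1 below, while both Aqp4 probes, S100b, Gjb6, Sox9 and Glul change side, and the errors are wider with the block.

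The members tended to move together from array to array. After each was centred within its group, the 45 pairs of members had Pearson's r from -0.164 to 0.803 over the 24 arrays, with a median of 0.346, and 39 were above 0. The highest was between Aqp4 and Sox9 (0.803), followed by Aldh1l1 and Gja1 (0.746), Gjb6 and Aldoc (0.732) and Aldh1l1 and Glul (0.728). The lowest were Gfap and S100b (-0.164) and Fgfr3 and Glul (-0.124). Slide was not removed from these values. CUMS arrays of slide 2 exceeded those of slide 1 by 0.461 for Aqp4 and 0.348 for Sox9, the highest pair, while Glul gave -0.101. The 2 arrays described next, on which all 10 members were high, were included. All points share the array scaling and the dissection of the sample, so these values are a description.

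On 2 arrays all 10 members lay above their group mean. In OVX+CUMS replicate 6 the mean deviation of the members was 0.291 and in control replicate 1 it was 0.252, whereas the other arrays lay between -0.174 and 0.145. With both arrays left out, a choice made after seeing the data, the Fgfr3 probes kept their calls for OVX+CUMS against control (0.277 and 0.345, limma adjusted p = 0.00358 and 0.00120) and for the OVX effect (0.144 and 0.159, adjusted p = 0.0182 and 0.0157). A_65_P06147 then also passed for the CUMS effect (0.186, adjusted p = 0.0411), and Gfap A_55_P2157250 was called lower in OVX+CUMS mice (-0.621, adjusted p = 0.0364).

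**Figure D4:**
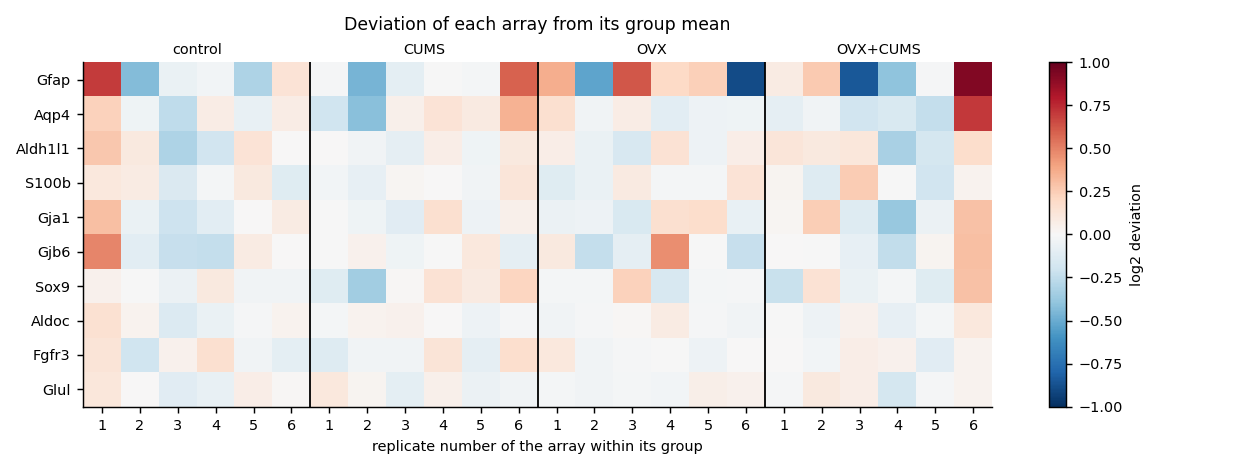
Deviation of each of the 24 mPFC arrays from the mean of its group, in log2 units, for 1 probe of each astrocyte marker gene (rows), with arrays ordered by group and replicate number (columns). Control replicate 1 and OVX+CUMS replicate 6 are above the group mean for all 10 genes, and the largest deviations in either direction are those of Gfap.

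The genes outside the list whose pattern was most like the mean of the 10 members, over 24 arrays centred within groups, were Prdx6 (r = 0.895), Apoe (0.891), Selenbp1 (0.887), Serpinf1 (0.874) and Naaa (0.863). Prdx6 encodes a peroxiredoxin and Apoe the main lipid carrier of the brain, which is also on the list of other astrocyte genes below. Without the 2 arrays farthest from the median of the members, r lay between 0.752 and 0.860 for these 5 genes, and Spearman's rho over all arrays between 0.810 and 0.872.

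A list of 32 other astrocyte genes, all detected, stood beside the members. With ovariectomy 6 rose and 1 fell, where 19.1% of all detected probes rose and 11.7% fell, so that the share that rose was near that of all probes. The list had a median change of 0.061 where that of all detected probes was 0.044. Slc6a11, the GABA transporter of astrocytes, was 0.174, 0.175, 0.363 and 0.708 on average in control, CUMS, OVX and OVX+CUMS mice, an OVX effect of 0.361 ± 0.100 (limma adjusted p = 0.00881). The next largest among the rises called were those of Mt3, a metallothionein enriched in brain (0.196, adjusted p = 0.00579), and Hepacam, an adhesion protein (0.187, adjusted p = 0.0442), and the gene that fell was Atp1b2, a subunit of the sodium pump (-0.158, adjusted p = 0.0196). In OVX+CUMS mice 5 were higher and 1 lower than in control mice, where 20.4% of all probes were higher and 13% lower, with a median of 0.058 beside 0.060 over all probes; Slc6a11 (0.534), Mt3 (0.284) and Cbs (0.244) were the largest rises called. Fabp7, the brain fatty acid binding protein of astrocytes and their precursors, was the 1 gene of the 32 called for stress. Of all detected probes 4.19% were called for the CUMS effect (1.86% lower), so 1 of 32 was near the share of all probes. The CUMS effect of Fabp7 was -0.435 ± 0.110 (limma adjusted p = 0.0334), with means of 2.80 in control, 2.41 in CUMS, 2.80 in OVX and 2.32 in OVX+CUMS mice. No gene of the list was called with slide as a block. The OVX effects in that fit were 0.099 for Slc6a11, 0.095 for Mt3, -0.043 for Hepacam and -0.114 for Atp1b2, and the CUMS effect of Fabp7 was -0.513. For OVX+CUMS against control the block gave 0.140 for Slc6a11, 0.134 for Mt3, -0.056 for Cbs and -0.709 for Fabp7, so that Hepacam and Cbs turned in sign.

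Of 35 genes that rise in reactive astrocytes, 25 were detected, and the marker Timp1 and the interferon target Cxcl10 were among the 10 that were not. With ovariectomy 2 rose and 3 fell, where 19.1% of all probes rose and 11.7% fell, so that the share that fell was near that of all probes. The list had a median of -0.111 beside 0.044 over all probes, and the same 2 and 3 were called in OVX+CUMS against control mice, a comparison that shares arrays with it. Those that fell were Iigp1, an interferon-induced GTPase (-0.695 ± 0.141, limma adjusted p = 0.00084), Cd44, a hyaluronan receptor (-0.673 ± 0.104, adjusted p = 9.39e-05), and the complement component C3 (-0.215 ± 0.069, adjusted p = 0.0203). Those that rose were Cd14, a receptor for bacterial lipopolysaccharide also made by microglia (0.290 ± 0.067, adjusted p = 0.00231), and Psmb8, a subunit of the immunoproteasome (0.217 ± 0.063, adjusted p = 0.0123). Their OVX effects, in the order named, were -0.275, -0.226, -0.029, 0.167 and 0.040 with slide as a block. For OVX+CUMS against control the block gave -0.344, -0.265, -0.080, 0.281 and 0.081 in the same order. For stress and for the interaction 0 of the 25 were called.

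**Figure D5:**
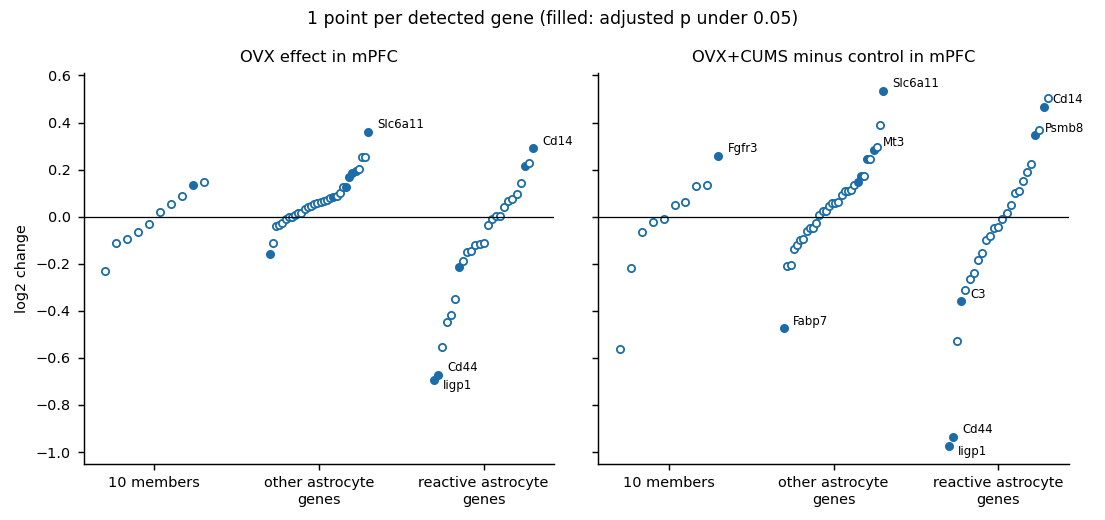
Log2 change of each detected gene for the OVX effect (left) and for OVX+CUMS against control (right) in the 10 members, 32 other astrocyte genes and 25 reactive astrocyte genes, in order of size within each list; filled points had an adjusted p under 0.05 without a block. Fgfr3 is the filled point among the members, and Iigp1 and Cd44 are the lowest of the reactive genes.

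Markers of microglia, the immune cells of the brain, were called in the same comparisons as Fgfr3, and so were some of neurons. Of 6 detected microglia markers of 6, 5 rose with ovariectomy and in OVX+CUMS mice, where 19.1% and 20.4% of all detected probes rose, among them Cx3cr1 (OVX effect 0.221 ± 0.054, limma adjusted p = 0.00387) and Aif1 (0.170 ± 0.044, adjusted p = 0.00576). Their summed log2 signal was 5.828 to 5.960 in control, 5.822 to 6.185 in CUMS, 5.998 to 6.207 in OVX and 5.957 to 6.246 in OVX+CUMS mice, and correlated with Fgfr3 within groups at r = 0.216. The OVX effect of Cx3cr1 was 0.003 and that of Aif1 -0.022 with slide as a block. For the other risen markers Tmem119, Csf1r and C1qa it was 0.101, 0.019 and 0.087 in that fit. The block gave -0.088, -0.106, 0.199, 0.061 and 0.116 for OVX+CUMS against control, in the order Cx3cr1, Aif1, Tmem119, Csf1r and C1qa. Sums of the neuron markers and of the 32 other astrocyte genes correlated with Fgfr3 within groups at r = 0.214 and 0.025. Of 8 neuron markers, 2 were higher and 2 lower in OVX+CUMS than in control mice, where 20.4% and 13% of all probes were. Slc17a7 rose most of these, by 0.357 (limma adjusted p = 7.23e-05), and by 0.385 with slide as a block. The part of microglia or of neurons in the Fgfr3 values was not tested. The summed signal of the 10 members themselves was 8.725 to 9.021 in control, 8.846 to 8.910 in CUMS, 8.846 to 8.941 in OVX and 8.808 to 9.014 in OVX+CUMS mice, with medians of 8.876, 8.900, 8.863 and 8.894. The ranges overlapped and were wider in control and OVX+CUMS mice, and the brightest probes weigh most in this sum.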

How the data were processed

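RNA of 24 mPFC and 24 blood samples was labelled with Cy3 and hybridized to a single Agilent SurePrint G3 mouse array each. Per the file headers, the spot intensity was background-subtracted and spatially detrended by Feature Extraction, and no scaling between arrays was applied. The log2 values deposited by the authors are these intensities shifted to the 75th percentile of each array in GeneSpring. They were compared for the 55249 probes with 1 spot, after the median difference of each mPFC array was removed. Of the values computed here 99.974% then lay within 0.001 log2 units of the deposited ones. The comparison cannot show whether the scaling of the arrays was the same. Each array has 62976 spots, of which 3671 control spots and between 98 and 191 marked outlier spots per mPFC array were left out; spots of a probe were averaged.

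A probe counted as detected on an array when most of its unmarked spots were positive, significant and well above background, and it was tested when that held for all 24 mPFC arrays and its signal exceeded 50 units on at least 2. Fits used limma 3.58.1 in R 4.3.3, with surgery, stress and their interaction as terms, moderated variances and Benjamini-Hochberg adjustment over 28358 probes; exact permutation tests used scipy 1.17.1, summaries were made with pandas 2.3.3 and plots with matplotlib 3.10.9 in Python 3.11.15. The code was tested on simulated data.

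Every member gene was named with all of its probes, and its brightest detected probe stood for it where 1 was needed; from the other astrocyte lists up to 3 genes called in each direction were named. The members and lists were chosen with earlier results of these data known. Alternatives covered background correction, scaling, filters, moderation, slide and replicate blocks, the deposited log2 values and single arrays; a spike-in scaling and leaving out 2 arrays together were added after seeing the data. Labels name 1 mouse per sample. The number of arrays limits the precision. Probe positions are those of mm9 in the array files; exon and UTR annotation of that build was not used here.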

Additional observations from a re-analysis of the deposited data

Results flagged for a closer look

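Among 56 combinations of a detected member probe and a group of 6 mPFC arrays, 5 held an array whose gap to its nearest neighbour, divided by the range of the group, exceeded Dixon's 95% critical value; chance gives about 1 in 20 such groups. Gfap accounted for 2 of them: probe A_55_P2157250 gave -0.181 in CUMS replicate 6, where the next array gave -0.724 (ratio 0.659), and A_55_P2157245 gave -4.067 in CUMS replicate 2, where the next gave -3.313 (ratio 0.645). Aqp4 accounted for 2 more. Its probe A_55_P2031939 gave 2.791 in OVX+CUMS replicate 6 with the next at 2.047 (ratio 0.783), and A_55_P2000369 gave 2.163 in control replicate 1 with the next at 1.701 (ratio 0.736). These arrays are the pair on which all 10 members lay above their group mean. The last was Fgfr3 A_55_P1996578 in OVX replicate 1, at 4.045 with the next at 3.942 (ratio 0.646).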

How the results depend on the processing

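Slide and group were nearly confounded, and with slide as a block the number of probes called was 0 for all 4 effects, members included. Of 440 values of member genes under settings other than leaving out 1 array, 379 kept direction and side of the threshold, 6 lost and 8 gained a call, and 47 turned in sign, none of them called. The cause of these changes was not tested. Signal over background limited 1 member probe, A_55_P2150422 of Fgfr3, which was detected on 0 of 24 arrays and not tested.

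Called probes for the OVX effect numbered 4934 after the spike-in shift (8751 otherwise), and member probes called 1 with quantile normalization, without a detection filter or without moderation and 0 with the percentile over detected probes or the spike-in shift. For the CUMS effect 25 probes were called without the filter, 4076 after the spike-in shift and 787 without the 2 arrays of highest member level (1189 otherwise), and 1 member with signals above 200, after the spike-in shift or without those 2 arrays. For the interaction (1273 otherwise) the count was 1 without the filter or without the 2 arrays, 783 with signals above 200, 716 without moderation and 0 after the spike-in shift, where 4742 had an unadjusted p under 0.05. In OVX+CUMS against control 4 of the 14 member probes were called with normexp and 4 with the percentile over detected probes, 2 higher and 2 lower in each. Of all 28358 probes 10340 and 8399 were called in these settings (9480 otherwise). After the spike-in shift 4 member probes were called, all lower, where 8429 of the 8583 probes called were lower.

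Leaving out 1 array gave 7634 to 9461 probes called for the OVX effect, 224 to 3328 for CUMS, 1 to 3854 for the interaction and 8328 to 10075 for OVX+CUMS against control, with 1 to 2, 0 to 2, 0 to 0 and 2 to 5 members. Of 960 values of member genes 913 were unaltered in call and sign, 4 gained a call and 43 turned in sign. The ranges that crossed 0 were, for CUMS, Aldh1l1 -0.030 to 0.034, Aqp4 -0.087 to 0.025, Glul -0.004 to 0.025 and Sox9 -0.054 to 0.010. For the interaction they were Aldh1l1 -0.097 to 0.022, Aldoc -0.031 to 0.027 and Aqp4 -0.191 to 0.020, and for OVX+CUMS against control Aldh1l1 -0.127 to 0.001, Aqp4 -0.011 to 0.180, Gjb6 -0.072 to 0.087 and Glul -0.047 to 0.012.

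With slide as a block the sign turned for the OVX effect in Aqp4 (-0.111), S100b (-0.060), Gjb6 (0.023) and Sox9 (-0.127), for CUMS in Aldh1l1 (-0.010), for the interaction in Gfap (0.334), Aqp4 (0.306), Sox9 (0.160), Aldoc (0.018), Fgfr3 (0.007) and Glul (-0.082), and for OVX+CUMS against control in Aqp4 (-0.257), S100b (-0.034), Gjb6 (0.190), Sox9 (-0.259) and Glul (0.001). The spike-in shift moved the median of all probes to -0.064 for OVX, -0.102 for CUMS and -0.161 for OVX+CUMS against control. Signs then turned for OVX in S100b (-0.056), Sox9 (-0.020) and Aldoc (-0.087), for CUMS in Aldh1l1 (-0.112), S100b (-0.030), Gjb6 (-0.013), Aldoc (-0.086) and Glul (-0.106), for the interaction in Glul (-0.001), and for OVX+CUMS against control in Aqp4 (-0.090), S100b (-0.086), Sox9 (-0.157) and Aldoc (-0.172).

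Normexp turned the OVX effect of Aldoc (-0.004) and Glul (0.066), the CUMS effect of Aqp4 (0.021) and Aldh1l1 (-0.022), the interaction of Aldh1l1 (0.017) and Glul (-0.012) and the OVX+CUMS difference of Glul (0.110). Quantile normalization turned Aldoc for OVX (-0.030), the interaction (0.012) and OVX+CUMS against control (-0.011), and Aldh1l1 (-0.013) and Glul (-0.014) for CUMS. The percentile over detected probes turned Aldoc for OVX (-0.010) and the interaction (0.025), and Aldh1l1 (-0.014) and Glul (-0.008) for CUMS. Without the 2 arrays the interaction of Gja1 (-0.020) and the OVX+CUMS difference of Gjb6 (0.026) turned.

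The share of called probes that were higher was 62% for OVX, 55.7% for CUMS and 61% for OVX+CUMS against control. It was 48.6%, 43.1% and 47.1% with the percentile over detected probes and 4.2%, 1.3% and 1.8% after the spike-in shift.

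Replicate numbers are shared between groups, and whether they pair the mice was not settled. Same-numbered arrays correlated at -0.230 to 0.391 over 36 pairs, with 16 above 0.1. Their median was 0.038, beside -0.002 for pairs of other numbers, and 7 of 24 arrays correlated best with their own number. With the replicate number as a block 1 member was called for the OVX effect and 618 probes for the interaction, and no other count moved by more than 1.5 times.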
